A study of Homo sapiens with 4 samples.

Results

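The 10 genes described here are markers of luminal epithelium, the secretory cell layer that lines the prostate gland: the keratins KRT8, KRT18 and KRT19, the adhesion proteins EPCAM and CDH1, and the tight junction genes CLDN3, CLDN4, CLDN7, OCLN and TJP1. They were listed by name among the 60675 genes counted in each library. All 10 were present in the annotation, and 9 of them passed the filter on low counts that kept 17600 genes for testing; KRT19 did not. RNA was sequenced from 4 libraries labelled LNCaP, a human prostate cancer cell line that responds to androgen. All 4 cultures received 1 nM R1881, a synthetic androgen, for 72 h in phenol red-free medium with hormone-depleted serum. With it, 2 cultures received vehicle (DMSO in the study's methods) and 2 received 50 µM CPI-455, an inhibitor of the KDM5 histone demethylases, which remove methyl groups from lysine 4 of histone H3. Each group is 2 biological replicates of 1 cell line, without a culture lacking androgen. The comparison asks how the inhibitor changed these genes while androgen was present.

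Keratins are the subunits of intermediate filaments. A type II keratin such as KRT8 pairs with a type I keratin such as KRT18 or KRT19, and the pair KRT8 and KRT18 marks simple and glandular epithelia. CDH1 encodes E-cadherin, the transmembrane adhesion protein of adherens junctions, and EPCAM encodes an epithelial adhesion protein that binds claudin-7. Claudins and occludin (OCLN) are membrane proteins of the tight junction, the seal between neighbouring epithelial cells, and TJP1 encodes ZO-1, the scaffold that ties them to actin. Loss of CDH1, OCLN and claudin transcripts is a known mark of cells that leave the epithelial state, and repressors of the SNAI and ZEB families act on such genes through E-box elements.

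Promoter sequences are shown first for 4 of the genes, 3 that were lower with CPI-455 and CLDN4, which was not, so that the E-box content of each can be read beside its values. The genes were picked with their values known, and for each the window with the most matches is printed. Each window holds 300 bases, 250 before and 50 after a RefSeq transcription start (GRCh38.p14), and is written 5′ to 3′ on the strand of the gene. Capitals mark the E-box CACCTG or its reverse complement CAGGTG. The windows are CLDN7 at chr17:7262429-7262728 (minus strand), OCLN at chr5:69492540-69492839 (plus), TJP1 at chr15:29969000-29969299 (minus) and CLDN4 at chr7:73830746-73831045 (plus).
CLDN7: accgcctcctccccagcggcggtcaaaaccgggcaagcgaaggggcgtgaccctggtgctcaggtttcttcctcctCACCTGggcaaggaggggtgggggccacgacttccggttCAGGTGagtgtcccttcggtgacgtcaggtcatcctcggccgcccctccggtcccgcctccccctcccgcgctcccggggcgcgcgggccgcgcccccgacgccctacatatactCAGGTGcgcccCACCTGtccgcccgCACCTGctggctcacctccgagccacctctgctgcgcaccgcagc
OCLN: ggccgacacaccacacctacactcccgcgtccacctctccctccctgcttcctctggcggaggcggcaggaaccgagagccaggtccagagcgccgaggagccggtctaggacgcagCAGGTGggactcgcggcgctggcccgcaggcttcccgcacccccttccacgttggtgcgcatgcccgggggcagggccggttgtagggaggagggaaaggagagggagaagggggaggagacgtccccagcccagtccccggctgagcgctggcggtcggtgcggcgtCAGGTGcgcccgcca
TJP1: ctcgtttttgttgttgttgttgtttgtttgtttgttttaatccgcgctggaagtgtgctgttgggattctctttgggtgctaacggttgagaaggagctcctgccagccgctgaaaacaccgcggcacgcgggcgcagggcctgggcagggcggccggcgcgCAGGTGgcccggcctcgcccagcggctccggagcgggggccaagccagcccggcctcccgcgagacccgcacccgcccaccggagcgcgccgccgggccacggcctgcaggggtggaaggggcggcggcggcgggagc
CLDN4: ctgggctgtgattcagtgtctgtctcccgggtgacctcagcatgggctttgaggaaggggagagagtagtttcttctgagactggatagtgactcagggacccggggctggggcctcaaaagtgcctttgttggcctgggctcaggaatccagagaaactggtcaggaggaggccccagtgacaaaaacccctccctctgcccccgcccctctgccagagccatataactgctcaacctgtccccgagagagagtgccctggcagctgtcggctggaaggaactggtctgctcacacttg
The CLDN7 window held 5 such E-boxes, the OCLN window 2, the TJP1 window 1 and the CLDN4 window 0. Of the 35116 RefSeq promoter windows of this length, 20.6% held at least 1 on either strand, 3.49% at least 2 and 0.094% at least 5. The table lists a second window for CLDN7 with none, a second for OCLN with 1 and 3 further windows for TJP1 with none, so the count depends on which start is read. CLDN3 had 1 and the KRT8 window none. KRT18, KRT19, EPCAM and CDH1 were not in the table. A match of letters is a description of the window, and binding was not measured here.

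Of the 9 tested genes, CDH1, OCLN, TJP1, CLDN7 and KRT8 were called lower with CPI-455 and none was called higher. A gene was called when its FDR, the p-value of edgeR's quasi-likelihood test after Benjamini-Hochberg adjustment over all genes tested, was below 0.05 and its change was at least 2-fold. By the same rule 21.3% of all genes tested were called lower and 21% higher, so a large part of the transcriptome differed between the groups. By FDR alone, 6 of the 9 genes were lower, against 32.8% of all genes tested, and 0 were higher, against 29.8%. All 9 are protein-coding. Of the 13813 protein-coding genes tested, 24.4% were called lower and 15.6% higher. By FDR alone, 5350 of the 13813 were lower and 3636 higher. At an unadjusted p below 0.05 0 of the 9 were higher, and DESeq2 called 5 lower and 0 higher. The median log2 fold change (CPI-455 over vehicle) was -1.08 over the 9 genes, -0.21 over the 13813 protein-coding genes tested and -0.04 over all genes tested. The normalised CPM (counts scaled to library size) of the groups did not overlap for 7 of the 9, and for 81.9% of all genes tested, so that a lack of overlap is common here. In bulk RNA, fewer cells of a type and less RNA per cell cannot be told apart.

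**Figure D1:**
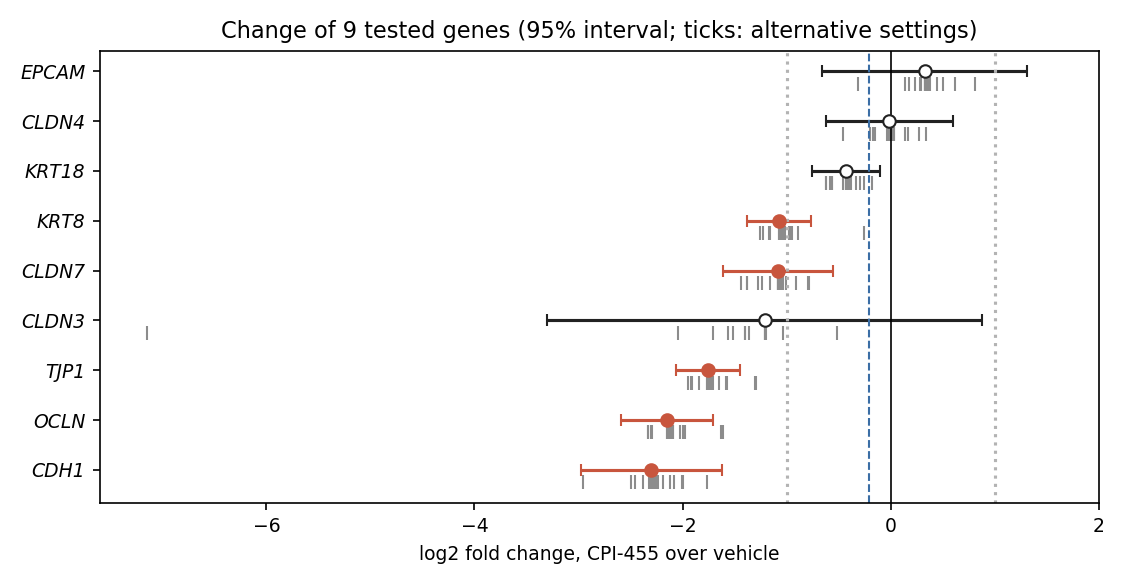
Log2 fold change, CPI-455 over vehicle, of the 9 tested genes (points) with 95% intervals (bars), filled red where called, with the value under each alternative setting as a grey tick. The solid line is no change, the dotted lines are 2-fold, and the dashed line is the median of protein-coding genes at -0.21; CDH1, OCLN and TJP1 lie furthest from it with intervals wholly past 2-fold lower, and the tick of CLDN3 at -7.14 comes from a fit in which its only CPI-455 count is 0.

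The libraries differed in depth and in composition. The vehicle libraries held 19623553 and 20690819 counted fragments and the CPI-455 libraries 9522920 and 5401588, and 3 counts correspond to between 0.145 and 0.153 CPM with vehicle and between 0.315 and 0.555 with CPI-455. MALAT1, a nuclear noncoding RNA, took 0.0884% to 0.114% of counts with vehicle and 4.95% to 6.49% with CPI-455, while mitochondrially encoded genes took 1.91% to 2.43% and 0.967% to 1.24%. The 10 genes together took 0.0460% and 0.0473% of all counts with vehicle, against 0.0156% and 0.0200% with CPI-455. With scaling computed without MALAT1 and mitochondrially encoded genes, the same 5 luminal genes were called lower. After thinning to the smallest library, 3 were called lower. Beyond these refits, the part of these shifts in the results below was not tested.

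The expression of the 3 keratins answered the label of luminal epithelium only in part. KRT8 and KRT18 were measured at 213 to 1956 fragments in each library, whereas KRT19 had 0 and 3 fragments with vehicle and 5 and 1 with CPI-455. These KRT19 counts lie at or near the 3-count limit, so no fold is given, and 2 KRT19 pseudogenes held as many fragments as the gene in 2 of the libraries. Per kilobase of exon (normalised CPM per kb, here FPKM), KRT18 stood at 21.3 ± 0.294 (SD, n = 2) with vehicle, above 89.2% of protein-coding genes, and EPCAM at 1.51 ± 0.153, above 45.5%. VIM, the intermediate filament gene of mesenchymal cells, stood far above the keratins at 140 ± 12.2 FPKM with vehicle and 288 ± 26.0 with CPI-455, higher than 99.2% and 99.4% of protein-coding genes. Its counts were 13757 and 16088 with vehicle, against 11892 and 7666 with CPI-455, and it was called higher (log2 fold change 1.04, SE 0.12, quasi-likelihood FDR = 4.92e-05), close to the 2-fold limit. The ratio of VIM to KRT18, which does not depend on scaling between libraries, was 6.54 ± 0.479 with vehicle and 18.1 ± 1.12 with CPI-455.

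Other cell type markers are given for the same libraries. Their counts stand beside 21% of all genes tested called higher and 21.3% called lower. Of the 15 basal epithelial markers, 7 were tested, 2 were called higher and 4 lower (2 without vehicle replicate 1, 1 with a filter at 10 counts in every library), with a median log2 fold change of -1.30. Their summed level was 106 and 102 CPM with vehicle and 218 and 202 with CPI-455 (replicates 1 and 2). LAMA3, a laminin chain, was at 44.3 and 47.4 CPM with vehicle and 182 and 171 CPM with CPI-455 (log2 fold change 1.95, quasi-likelihood FDR = 1.89e-06). LAMA3 rose by more than the sum did, so the other basal markers together were lower with CPI-455. NGFR was the other called higher (log2 fold change 2.75), while the integrin genes ITGA6 and ITGB4 fell by 1.30 and 2.31. The defining basal keratins KRT5, KRT15 and KRT6B had no fragment in any library, KRT14 had 2, 5, 11 and 0 and TP63, the basal transcription factor, had 2, 1, 0 and 6 (vehicle 1 and 2, CPI-455 1 and 2). Among 19 mesenchymal and other non-epithelial markers, 9 were tested, 2 were called higher (0 with library totals as the scaling or without vehicle replicate 1) and 3 lower, and their summed level of 823 and 913 CPM with vehicle and 1473 and 1643 with CPI-455 was mostly VIM. CDH2, encoding N-cadherin, fell from 10.1 ± 0.585 to 2.41 ± 0.553 FPKM (log2 fold change -2.10, FDR = 1.75e-05, quasi-likelihood test), the opposite direction to VIM. The prostate gene KLK3 (PSA), named after its values were seen, was present at 82.0 ± 7.08 FPKM with vehicle and at 26.2 ± 4.32 FPKM with CPI-455. The identity and purity of the cells behind the LNCaP label were not tested, nor was the part of VIM and of the other markers in the changes of the luminal genes.

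**Figure D2:**
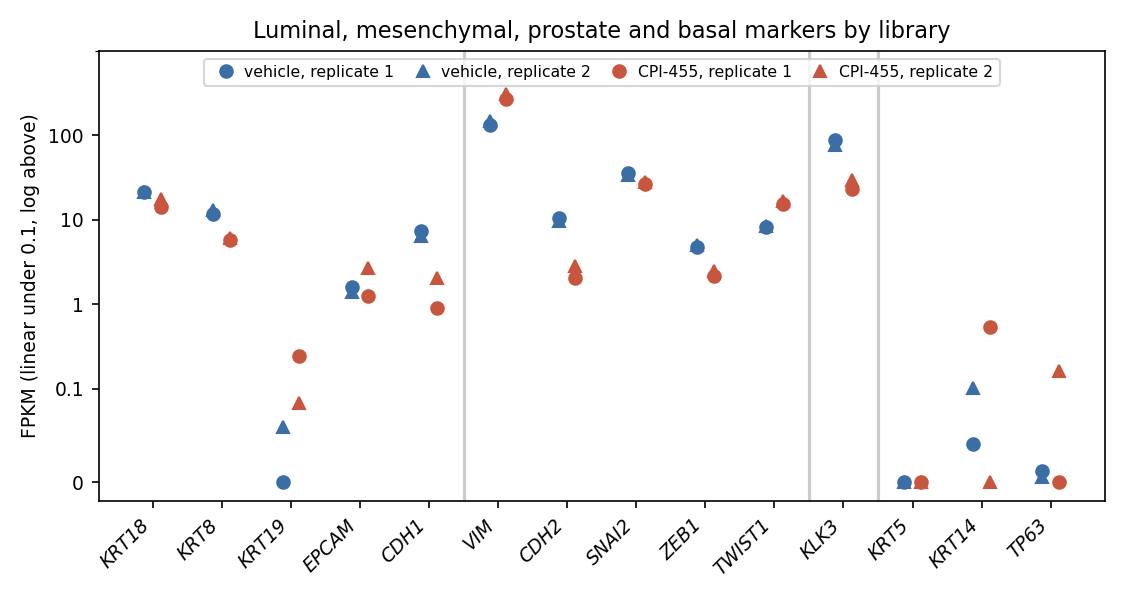
Level per exon length (FPKM, linear under 0.1 and log above) of luminal, mesenchymal, prostate and basal markers in each library, vehicle in blue and CPI-455 in red, circles for replicate 1 and triangles for replicate 2. VIM sits above 100 FPKM in all 4 libraries, KRT18 between 14.3 and 21.6, and KRT19 and the basal markers plotted (KRT5, KRT14 and TP63) under 1.

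In order of level per exon length with vehicle, KRT18 was followed by TJP1 (12.9 ± 0.842 FPKM, SD, n = 2) and KRT8 (12.4 ± 0.894), whose replicates overlapped each other. CLDN7 came next at 10.9 ± 0.8001, then OCLN (7.07 ± 0.933) and CDH1 (6.89 ± 0.632), again overlapping. CLDN4 (3.49 ± 0.481), EPCAM (1.51), CLDN3 (0.860 ± 0.150) and KRT19 (0.0294) were lowest. The order differed with CPI-455, where KRT18 stood first at 15.97 ± 2.42 and KRT8 (5.91 ± 0.319) and CLDN7 (5.30 ± 1.62) overlapped behind it. TJP1 (3.82 ± 0.447) overlapped CLDN4 (3.54 ± 1.32), and EPCAM, OCLN and CDH1 overlapped one another at 1.96 ± 1.01, 1.62 ± 0.242 and 1.48 ± 0.809 FPKM. OCLN stood above 68.5% of protein-coding genes with vehicle and 48.0% with CPI-455, and CDH1 above 67.9% and 47.0%. The place of OCLN depends on repeated sequence, since 66.9% of the 50-base windows in its exons occur elsewhere in the genome. Per kilobase of windows found once, it stood at 22.98 CPM with vehicle, behind only KRT18 at 25.9, with KRT8 at 15.4 and CDH1 at 8.33. With CPI-455 it stood at 5.26 on that scale, EPCAM at 2.43 and CDH1 at 1.79.

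**Figure D3:**
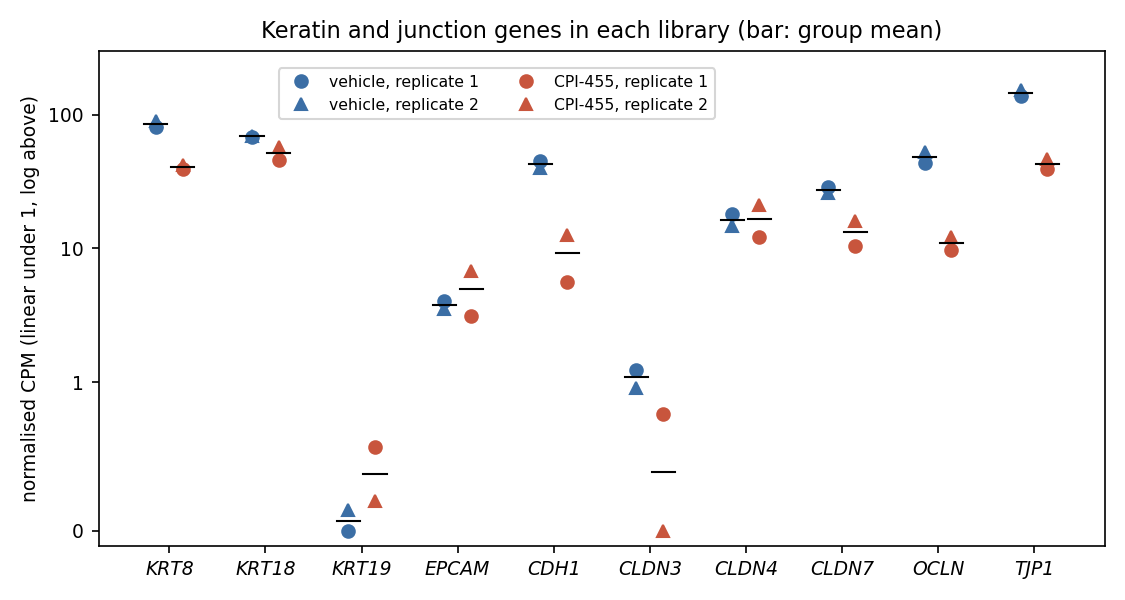
Normalised CPM (linear under 1, log above) of the 10 genes in each library, vehicle in blue and CPI-455 in red, with the group mean as a bar. The groups lie clear of each other for KRT8, KRT18, CDH1, CLDN7, OCLN and TJP1, and overlap for EPCAM and CLDN4.

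KRT8 lies on chromosome 12 of GRCh38 from 52897187 to 52949954 on the minus strand, and KRT18 beside it from 52948871 to 52952901 on the plus strand. KRT8 was measured at 80.9 and 89.6 CPM in the vehicle libraries and at 39.1 and 42.2 CPM in the CPI-455 libraries. Both CPI-455 libraries were lower than both vehicle libraries, with a log2 fold change of -1.07 (SE 0.14, quasi-likelihood FDR = 0.000118), which is 2.10-fold lower and close to the 2-fold limit. KRT18 was measured at 68.0 and 69.4 CPM with vehicle and 45.9 and 56.9 CPM with CPI-455. The groups did not overlap for KRT18 either, and its log2 fold change of -0.43 (SE 0.15, quasi-likelihood FDR = 0.0281) passed the FDR but not the 2-fold limit. The ratio of KRT8 to KRT18 within a library, per exon length, was 0.556 and 0.604 with vehicle, against 0.399 and 0.347 with CPI-455. By fragments on the genes alone the 2 partners thus did not keep 1 ratio. The difference depends on leaving out fragments on their pseudogenes, described below. This ratio was not tested. Of the exon bases, 7.63% of KRT8 and 19.05% of KRT18 overlap another annotated gene, mostly each other, and fragments there were not counted since strand was not used.

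Pseudogenes of KRT8, copies of its transcript elsewhere in the genome, took more fragments in sum with CPI-455, while the gene took fewer. Of 51 annotated KRT8 pseudogenes, 19 had a fragment, 7 were tested, and of these 3 were called higher in the CPI-455 libraries and 0 lower. That share is near the 42.1% called higher among all 539 processed pseudogenes tested, of which 9.46% were called lower, and single copies differed, with KRT8P46 at 22, 17, 7 and 0 fragments (log2 fold change -0.94, quasi-likelihood FDR = 0.411). The 3 called copies would not have passed the low-count filter on their vehicle libraries alone. Their direction, and the share over processed pseudogenes, are therefore open to selection by the filter. The family's summed level was 9.80 and 8.52 CPM with vehicle and 40.3 and 35.9 CPM with CPI-455, or 12.1% and 9.51% against 103% and 85.0% of the fragments on KRT8 itself. In the CPI-455 libraries the pseudogenes thus held about as many fragments as the gene. With their fragments added to the gene, KRT8 stood at 90.7 and 98.1 CPM with vehicle and 79.4 and 78.1 CPM with CPI-455, and its log2 fold change was -0.26 (SE 0.12, quasi-likelihood FDR = 0.0858), which is not called. This alternative was chosen after seeing the data. Which of the fragments came from KRT8 transcripts was not tested.

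The largest part of that rise was KRT8P36, on chromosome 3 from 138101478 to 138102917, with 19 and 7 fragments with vehicle and 189 and 83 with CPI-455 (log2 fold change 4.95, SE 0.43, quasi-likelihood FDR = 1.17e-05). It lies inside DZIP1L on the same strand, and DZIP1L itself was at 17.7 and 19.4 CPM with vehicle and 30.6 and 30.3 CPM with CPI-455 (log2 fold change 0.72, quasi-likelihood FDR = 0.00518, not called). KRT8P15, inside ICA1L on the same strand, had 5, 1, 31 and 17 fragments (log2 fold change 4.53, quasi-likelihood FDR = 0.000942), while ICA1L had a log2 fold change of -0.21 (FDR = 0.415, same test). KRT8P12, the copy with the most fragments at 109, 109, 81 and 43, passed the FDR but not the 2-fold limit (log2 fold change 0.80, quasi-likelihood FDR = 0.0358). The median log2 fold change of all processed pseudogenes tested was 1.13, with the same limit from the filter. The 67 annotated KRT18 pseudogenes had too few fragments for any to be tested. They summed to 2.18 and 3.02 CPM with vehicle and 10.0 and 14.3 CPM with CPI-455. With them added, KRT18 had a log2 fold change of -0.18 (quasi-likelihood FDR = 0.323). It then stood at 70.2 and 72.4 CPM with vehicle and 55.9 and 71.2 CPM with CPI-455. With pseudogenes added to both genes, the ratio of KRT8 to KRT18 overlapped between the groups.

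**Figure D4:**
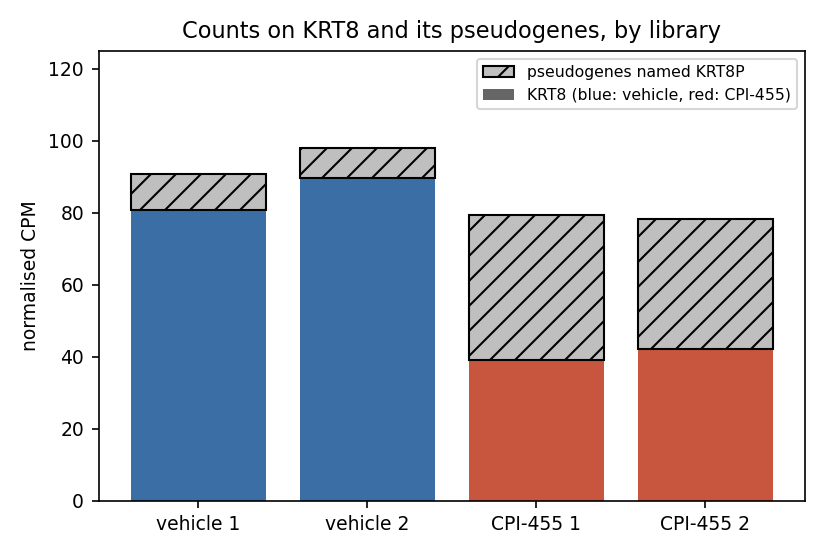
Normalised CPM on KRT8 (blue for vehicle, red for CPI-455) and, stacked in hatched grey, on all its annotated pseudogenes, for each of the 4 libraries. The gene alone falls from 80.9 and 89.6 to 39.1 and 42.2 CPM, and the full bars span 78.1 to 98.1 CPM.

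CDH1, on chromosome 16 from 68737225 to 68835548, was called lower. It was measured at 45.3 and 39.8 CPM with vehicle and at 5.62 and 12.7 CPM with CPI-455. Both CPI-455 libraries lay well below both vehicle libraries but differed from each other, and the log2 fold change was -2.30 (SE 0.30, quasi-likelihood FDR = 0.00014), or 4.93-fold lower. Leaving out one library at a time gave between -2.96 and -1.76, called each time. The next gene before it, CDH3 (P-cadherin, a basal marker), ends 14608 bases before it and was low in all libraries, at 1.56 and 1.19 CPM with vehicle and 2.47 and 0.595 with CPI-455 (log2 fold change 0.26, quasi-likelihood FDR = 0.767).

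EPCAM, on chromosome 2 from 47345158 to 47387601, was measured at 4.07 and 3.53 CPM with vehicle and at 3.15 and 6.74 CPM with CPI-455. The CPI-455 replicates lay on either side of the vehicle replicates, and the log2 fold change was 0.33 (SE 0.44, 95% interval -0.66 to 1.31, quasi-likelihood FDR = 0.539). The interval spans falls and rises, so that a change of EPCAM was not detectable at this depth. Without CPI-455 replicate 2 the log2 fold change turned to -0.31, and without CPI-455 replicate 1 it was 0.81. The ratio of EPCAM to CDH1 per exon length was 0.220 and 0.217 with vehicle, against 1.37 and 1.30 with CPI-455, so the library that was low in one of them was low in the other.

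OCLN and TJP1 were lower with CPI-455. OCLN, on chromosome 5 from 69492292 to 69558104, was measured at 43.3 and 52.2 CPM with vehicle and 9.78 and 12.1 CPM with CPI-455. The groups were far apart relative to their replicates (log2 fold change -2.15, SE 0.20, quasi-likelihood FDR = 1.57e-05, 4.43-fold lower). Of the 50-base windows in its exons, 66.9% occur elsewhere in the genome, and fragments with several alignments were left out. The level of OCLN per exon length may therefore be understated. The window length was a setting chosen here, and how many fragments were lost was not tested. Per kilobase of windows found once, OCLN stood at 22.98 CPM with vehicle and 5.26 CPM with CPI-455. TJP1, on chromosome 15 from 29699367 to 29968865, had no repeated window and no shared exon, and was measured at 138 and 152 CPM with vehicle and 39.5 and 46.6 CPM with CPI-455. Its log2 fold change was -1.76 (SE 0.14, quasi-likelihood FDR = 6.12e-06), or 3.39-fold lower. CDH1, OCLN and TJP1 stayed called under each of the 17 alternatives tried, but the sizes moved. Log2 fold changes ran from -2.96 to -1.76 for CDH1, -2.34 to -1.61 for OCLN and -1.95 to -1.30 for TJP1. The smallest falls of OCLN and TJP1 came from the fit with a replicate block and the length and GC trend removed.

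The 3 claudins did not move alike. CLDN7, on chromosome 17 from 7259903 to 7263983, was measured at 28.7 and 25.9 CPM with vehicle and 10.3 and 16.1 CPM with CPI-455. It was lower in both CPI-455 libraries (log2 fold change -1.08, SE 0.23, quasi-likelihood FDR = 0.00298), though without CPI-455 replicate 1 the log2 fold change was -0.78, short of 2-fold. CLDN4, on chromosome 7 from 73799542 to 73832693, was measured at 17.99 and 14.8 CPM with vehicle and 12.3 and 21.0 CPM with CPI-455. The groups overlapped fully, with a log2 fold change of -0.01 (SE 0.27, 95% interval -0.62 to 0.60, quasi-likelihood FDR = 0.973), and the sign depended on the scaling and on which CPI-455 library was kept (0.34 without replicate 1, -0.46 without replicate 2). CLDN3, its neighbour 29271 bases away on the same chromosome, had 26 and 21 fragments with vehicle and 7 and 0 with CPI-455 (log2 fold change -1.21, SE 0.93, 95% interval -3.30 to 0.88, quasi-likelihood FDR = 0.282), too few to show a change at this depth. Without CPI-455 replicate 1, CLDN3 was called lower (quasi-likelihood FDR = 0.0128) against the 1 remaining count of 0, which gives no fold.

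The makeup of the claudins within each library can be read without scaling between libraries. CLDN7 made up 70.6% and 72.7% of the summed FPKM of the 3 claudins with vehicle and 56.3% and 59.0% with CPI-455. CLDN4 made up 23.5% and 22.02% with vehicle, against 35.3% and 41.0% with CPI-455. The ratio of CLDN7 to CLDN4 was 3.15 ± 0.206 (SD, n = 2) with vehicle and 1.52 ± 0.107 with CPI-455. The replicates did not overlap for either share or for the ratio, and neither the shares nor the ratio was tested.

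The CPI-455 replicates differed from each other in 1 direction for most of the genes. Of the 10 genes, 8 were higher in CPI-455 replicate 2 than in replicate 1, compared with 44.4% of all genes tested. The vehicle replicates split evenly, with 5 of 10 higher in replicate 2, compared with 49.5% of genes tested. KRT19 and CLDN3, the genes with the fewest fragments, were the 2 exceptions, and replicate 2 is also the shallowest library.

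Among 32 partners of the tight junction, 30 were tested, 3 were called higher and 6 lower, with a median log2 fold change of -0.51. Both shares are below the 21% and 21.3% over all genes tested. MARVELD2 (tricellulin, which seals the corners where 3 cells meet) fell by 3.06 on the log2 scale, from 16.2 ± 1.00 to 2.15 ± 1.45 CPM (quasi-likelihood FDR = 0.000134), and MARVELD3 fell by 1.71. Both belong to the same protein family as occludin. AMOTL1, an angiomotin-like scaffold, fell by 2.14 and JAM3, a junctional adhesion molecule, by 1.46. In the other direction, MARVELD1 rose by 2.13 (from 17.9 ± 0.851 to 78.2 ± 13.0 CPM, quasi-likelihood FDR = 5.80e-06), SYMPK by 1.31 and CGN, encoding the junction protein cingulin, by 1.03. YBX3, a partner of ZO-1 with the highest level of the list per exon length with vehicle, had a log2 fold change of -0.38, under the 2-fold limit.

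Of the 21 adherens junction partners, 20 were tested, 1 was called higher (5%) and 6 lower (30%), with a median log2 fold change of -0.61. Over protein-coding genes tested the shares were 15.6% and 24.4%, and over all genes tested 21% and 21.3%. The 6 were 4 with upper-quartile scaling, after thinning or with a filter at 10 counts in every library, and 9 with library totals or no filter. The nectins, immunoglobulin-like adhesion proteins that work beside cadherins, were lower to different degrees. NECTIN4 fell by 3.23 (from 9.32 ± 0.747 to 0.916 ± 0.454 CPM, quasi-likelihood FDR = 0.000133), NECTIN1 by 2.85 and NECTIN3 by 2.31. NECTIN2 had a log2 fold change of -0.90 (from 101 ± 1.87 to 53.9 ± 4.20 CPM, quasi-likelihood FDR = 0.000232), under the 2-fold limit. PVR, the related adhesion molecule with the highest level per exon length of the list with vehicle, fell by 1.35. CTNNB1 (beta-catenin) and CTNNA1, which join E-cadherin to actin, had log2 fold changes of -0.89 and -0.50, under the 2-fold limit. CTNND1, another catenin, had -0.73, also under the limit. The ratio of CTNNB1 to CDH1 per exon length was 4.82 and 5.79 with vehicle, against 20.8 and 9.79 with CPI-455. ARVCF, of the p120-catenin family, was the 1 gene called higher (log2 fold change 1.05, quasi-likelihood FDR = 0.00109), and no gene of the list was called higher with library totals, with no filter, or without vehicle replicate 2 or CPI-455 replicate 1.

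Desmosomes, the junctions that anchor keratin filaments, held called genes in 1 direction. Of 17 genes, 14 were tested, and 7 of these were called lower and 0 higher. The 7 were 5 with a filter at 10 counts in every library and 8 with library totals. The 0 became 1 with upper-quartile scaling or after thinning. EPPK1 and PPL, both among the 7, would not have passed the low-count filter on their CPI-455 libraries alone. The median log2 fold change of the 14 was -1.12, and 10 of the 14 were lower by FDR alone. The desmosomal cadherin DSC3 fell from 107 ± 0.381 to 12.6 ± 1.78 CPM (log2 fold change -3.10, quasi-likelihood FDR = 8.89e-07), DSC2 fell by 2.17 and DSG2, the highest of the list per exon length with vehicle, by 1.51. DSP (desmoplakin, which binds keratins to the plaque) fell by 1.43 and EPPK1 (epiplakin) by 3.38, the latter from 171 and 161 fragments to 4 and 6. PERP had a log2 fold change of -0.82, under the 2-fold limit. No set test was run, and the counts stand beside the background of 21.3% called lower.

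Of 8 connexin genes of gap junctions, 5 were tested and 20% of these were called lower, near the 21.3% over all genes tested. Only GJB2 was called, lower (log2 fold change -3.01, quasi-likelihood FDR = 0.00732), with 80 and 65 fragments with vehicle and 6 and 0 with CPI-455. It is named for being the 1 gene called, and the count of 1 was 0 without vehicle replicate 1 or with the filter at 10 counts and 2 with library totals or no filter. GJC1 and GJA1 (connexin 43), the highest per exon length with vehicle, had log2 fold changes of -0.69 and 0.43. Of the 16 genes listed with EPCAM, 14 were tested, 1 was called higher (7.14%) and 6 lower (42.9%), with a median of -1.19. Over all genes tested these shares were 21% and 21.3%. The 6 were 4 with a filter at 10 counts in every library and 9 with library totals. ADAM10, a protease known to cut EPCAM among many other proteins, fell by 2.30, and ADAM17 fell by 1.87. SPINT1, an inhibitor of matriptase, fell by 1.97, and ST14 (matriptase) fell by 1.44. FHL2 was called higher (log2 fold change 1.06, quasi-likelihood FDR = 0.00255), a call lost with library totals, with no filter and without vehicle replicate 2. CD9, a tetraspanin, had a log2 fold change of -0.83. Of 10 other keratins, KRT10 was the 1 tested, with a log2 fold change of 0.72 (quasi-likelihood FDR = 0.00167), under the 2-fold limit; KRT80 had 17 and 11 fragments with vehicle and 0 and 0 with CPI-455.

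Genes that promote the epithelial program, all but RAB25 transcription or splicing factors, held more called lower than higher. Of 17, 15 were tested, and 8 of these were called lower (53.3%), RAB25 among them (log2 fold change -2.00), and 1 higher (6.67%). The shares were 21.3% and 21% over all genes tested, and 24.4% and 15.6% over protein-coding genes tested. The 8 were 3 with a filter at 10 counts in every library and 5 after thinning. The median log2 fold change of the list was -1.01. ESRP1, the splicing factor of epithelial cells, fell from 12.5 ± 0.197 to 2.11 ± 1.31 CPM (log2 fold change -2.45, quasi-likelihood FDR = 0.000389), EHF fell by 1.82, and GRHL2, which activates CDH1 and claudin genes, fell by 1.71. KLF5 fell by 1.33 and SPDEF, a prostate epithelial factor, by 1.28. ELF3 was the 1 called higher, with 31 and 44 fragments with vehicle and 84 and 94 with CPI-455 (log2 fold change 2.98, quasi-likelihood FDR = 0.000209).

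Of 14 known repressors of CDH1, 12 were tested, and 2 of these were called lower and 0 higher, with a median of -0.47. The 2 called lower are 16.7% of those tested, below the 21.3% over all genes tested. They were 0 after thinning and 1 with DESeq2, upper-quartile scaling, the length and GC trend removed or either vehicle library left out, and 1 was higher with upper-quartile scaling or after thinning and 2 without CPI-455 replicate 2. SNAI2 (Slug), the highest of them per exon length with vehicle, stood at 34.5 ± 1.36 FPKM (SD, n = 2) with vehicle and 27.3 ± 0.644 with CPI-455 (log2 fold change -0.34, quasi-likelihood FDR = 0.0373, under 2-fold). ZEB1 fell from 4.88 ± 0.235 to 2.31 ± 0.208 FPKM (log2 fold change -1.09, quasi-likelihood FDR = 0.000354) and FOXC2 fell by 1.34. TWIST1, named after its values were seen, went the other way, from 8.35 ± 0.111 to 15.9 ± 0.929 FPKM (log2 fold change 0.93, quasi-likelihood FDR = 0.00121), under the 2-fold limit. The E-box of the promoter windows shown above is the element that SNAI2 and ZEB1 are known to bind, and their binding was not measured here.

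**Figure D5:**
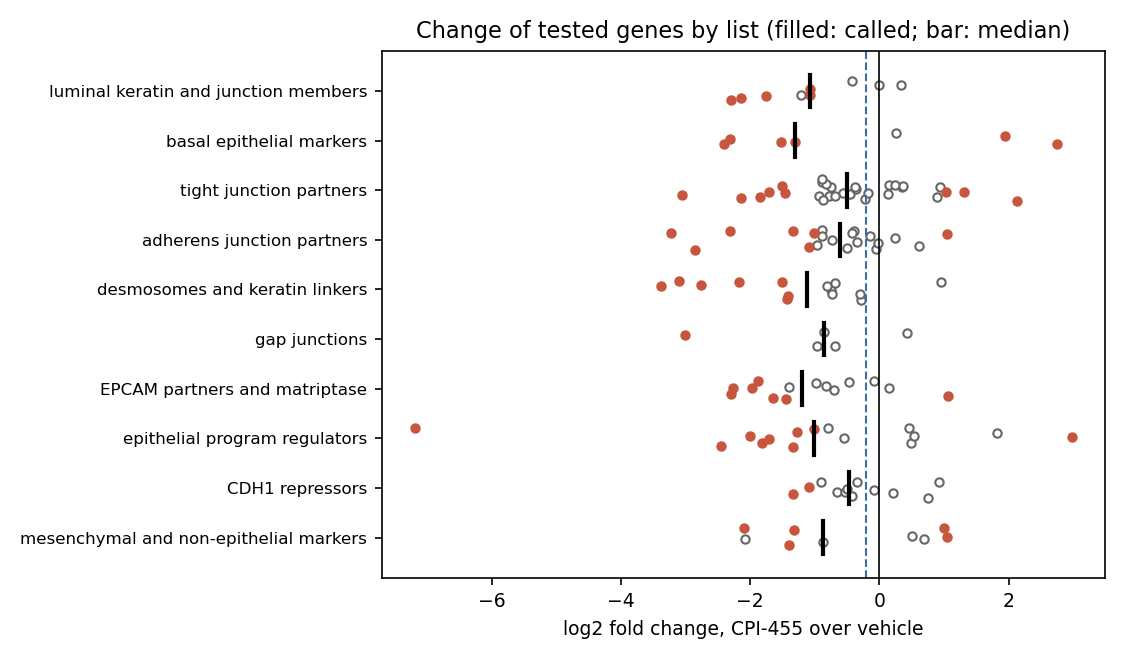
Log2 fold change, CPI-455 over vehicle, of every tested gene of the luminal genes and 9 related lists, filled red where called, with the list median as a black bar and the protein-coding median of -0.21 as a dashed line. Called genes lie on both sides for most lists and only on the lower side for the luminal genes, the desmosomal genes, the gap junction genes and the CDH1 repressors; the point at -7.19 is GRHL3, which had 0 fragments in both CPI-455 libraries, so its value is no measure of size.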

How the data were processed

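RNA-seq was performed on 4 cultures labelled LNCaP with 1 nM R1881 for 72 h, 2 with vehicle and 2 with 50 µM CPI-455. The authors trimmed reads with Trim Galore, aligned them to GRCh38 with STAR and deposited raw counts of fragments per gene from featureCounts 1.5.0-p1 on Ensembl release 83, one library at a time and not normalised. Counting ignored strand and left out fragments that aligned to several places or lay on several genes. How RNA was selected is not given in the sources used here.

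From the counts, TMM factors (1.08 and 1.06 for the vehicle libraries, 0.936 for both CPI-455 libraries), filterByExpr (minimum 10 counts), glmQLFit and glmQLFTest were run in edgeR 4.0.16 (R 4.3.3) without covariates on all genes, and p-values were adjusted over the 17600 tested. Genes at an FDR below 0.05 and at least 2-fold were called. CPM are TMM-normalised, and FPKM are CPM per kilobase of exon. Symbols and gene types came from GENCODE release 44 (56558 genes matched). The genes and lists were chosen with earlier results of these data known. All 10 luminal genes are named, and from each other list up to 3 called genes in each direction with the largest change (mean log2 CPM of at least 2) and the 2 with the highest level per exon length. Other genes were named after their values were seen, and some genes are not reported here. Alternatives were RLE, upper-quartile and total-count scaling, scaling without MALAT1 and mitochondrial genes, other filters, DESeq2 1.42.0, a likelihood-ratio test, thinning, a replicate block, a length and GC trend (mgcv 1.9.3), leaving out each library, and adding pseudogene counts. The test was checked on simulated data. With 2 libraries per group, p-values measure the spread between these cultures, and counting limits cover counting error only.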

Additional observations from a re-analysis of the deposited data

How the results depend on the processing

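With 2 libraries per group and shallower CPI-455 libraries, small changes and low genes are the least sure. The filter also keeps a gene that reaches its limit in 1 group alone, and the direction of such genes is open to that selection. No luminal gene was called higher under any of the 17 alternatives. The number called lower, 5, was 3 with upper-quartile scaling and 3 after thinning to the smallest library, where KRT8 (-0.89 and -0.95) and CLDN7 (-0.91 and -0.80) missed 2-fold. It was 4 without a length and GC trend (KRT8 -0.98) and 4 with pseudogene counts added (KRT8 -0.26), and it was 5 to 5 when any one library was left out, although without CPI-455 replicate 1 CLDN7 was lost and CLDN3 gained. The sign of CLDN4 turned with RLE scaling (0.010), upper-quartile scaling (0.17), DESeq2 (0.030), a filter at 10 counts in each of the 4 libraries (0.034) and thinning (0.28), and its values without one library ran from -0.46 to 0.34; those of EPCAM ran from -0.31 to 0.81. Neither gene was called under any alternative, and CLDN3 could be tested in 14 of the 17. Tight junction partners called lower, 6, were 10 with library totals and 10 without CPI-455 replicate 2, and epithelial regulators called lower, 8, were 3 with the filter at 10 counts and 5 after thinning, where fewer genes were tested, and 5 without vehicle replicate 2. The median shift of log2 fold changes, over genes tested in both fits, was 0.18 with upper-quartile scaling, -0.19 with library totals, -0.16 without a filter, 0.11 after thinning and 0.11 without the trend. Called genes were 58.1% higher with upper-quartile scaling and 40.7% with library totals, against 49.6%. The replicate block, which left 5 luminal genes lower and 3422 genes higher and 3745 lower of all tested, changed no call of a luminal gene. Same-numbered libraries had a correlation of deviations of 0.05, and no source says that they were grown together, so the numbers were not taken as pairs. The causes of these shifts were not tested.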
